A study of Mus musculus with 162 samples.

Results

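Cheek skin of wild-type C57BL/6 mice was profiled by RNA-seq on day 8 of topical MC903, and the 11 libraries described here are those labelled as skin, wild-type, uninjected and day 8, out of 162 libraries in the series. In 5 of them the shaved cheek of adult male mice had received 20 µL of 0.2 mM MC903 (calcipotriol, a low-calcaemic vitamin D analog) in 100% ethanol each day, and in 6 it had received the ethanol alone, with no injection and no genetic change in either group. The libraries came in 2 cohorts by the style of their titles. Cohort A held 3 MC903 libraries (A1, A2, A3) and 3 ethanol libraries, and cohort B held 2 MC903 libraries (B1, B2) and 3 ethanol libraries. Whole pieces of cheek skin were used, so epidermis, hair follicles, dermis, fat and underlying muscle were read together. In such bulk tissue, fewer cells of a type and less RNA per cell cannot be told apart. The labels name no cage, litter or date, so p-values measure the spread between these libraries.

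MC903 binds the vitamin D receptor in keratinocytes, which then secrete the cytokine TSLP and other alarmins. In mice the repeated treatment thickens and inflames the skin and gives an itching dermatitis that is used as a model of atopic dermatitis, driven by type 2 lymphocytes, basophils and other recruited leukocytes. The epidermis is normally a stack of basal, spinous, granular and cornified layers, each marked by its own keratins and envelope proteins. Wounded or inflamed epidermis switches to a separate set of stress keratins and small proline-rich proteins.

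The libraries held 29233248 to 39629520 reads assigned to genes, with a median of 34405357, and none of the 10 pairs within a cohort and group agreed within sampling noise. A level is given below as CPM, the reads of a gene per 1000000 scaled gene reads of its library. Where 5 levels follow each other they are MC903 A1, A2, A3, B1 and B2 in that order, and the 3 levels after them are the lowest, median and highest of the 6 ethanol libraries. A change is the log2 fold change of MC903 over ethanol with a term for cohort, ± its standard error, tested with edgeR's quasi-likelihood test and Benjamini-Hochberg adjustment over 26175 genes. Of these, 3189 (12.2%) passed an adjusted p of 0.05 as higher in MC903 and 2936 (11.2%) as lower, and the median change of all genes was −0.03. Groups that did not overlap were counted among all genes tested, whether or not they passed: 1945 genes higher in MC903 (7.43%) and 1254 lower (4.79%). The tissue label fitted its markers: Krt5, a basal keratin, had 2441 to 3804 CPM with MC903 and 1410 to 3013 CPM with ethanol, whereas the sensory neuron sodium channel gene Scn10a averaged 1.24 and 2.35 CPM.

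Among genes of the vitamin D receptor's pathway, the largest change was that of Cyp24a1. The gene (chromosome 2, 170482708 to 170497145, GRCm38), which encodes the enzyme that breaks vitamin D down, had 3168, 3983, 2036, 2112 and 2395 CPM against 9.23, 17.4 and 29.6 CPM in ethanol. No MC903 library came near the ethanol range, and Cyp24a1 rose by 7.24 ± 0.34 (adjusted p = 2.49e-08). Cyp26b1, which degrades retinoic acid, had 263, 298, 298, 136 and 198 CPM against 38.6, 46.1 and 79.3 CPM, and rose by 2.16 ± 0.16 (adjusted p = 9.91e-07). Of 15 measured members of the receptor's pathway, 7 were higher and 1, the cell cycle inhibitor gene Cdkn1c (−0.66), was lower, with a median change of 0.44 and cohort medians of 0.03 in A and 1.12 in B. The thrombomodulin gene Thbd rose by 1.46 ± 0.15, the podoplanin gene Pdpn by 1.30 and the receptor's corepressor Hr (hairless) by 0.92, which did not pass in cohort A alone. The calcium-binding protein gene S100g stood at 11 to 57 reads per MC903 library and 0 to 5 per ethanol library. Fgf23, a phosphate hormone made mainly in bone, had 0.653 to 7.35 CPM with MC903 and at most 0.0479 CPM with ethanol. The receptor gene Vdr averaged 233 ± 81.6 CPM (SD, n = 5) with MC903 and 308 ± 43.8 CPM (SD, n = 6) with ethanol and did not pass, nor did the calcium channel gene Trpv6 or the activating enzyme gene Cyp27b1. In cohort A alone Vdr and Trpv6 passed as lower, with changes of −0.83 and −2.23.

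The keratinocyte layers did not move together. Among basal markers, 4 of 8 were higher and none was lower. Krt14, the type I keratin of the basal layer, had 15390, 12360, 11430, 6654 and 7566 CPM against 1335, 1592 and 1860 CPM, and rose by 2.66 ± 0.19 (adjusted p = 9.60e-07). Its partner Krt5 averaged 3094 ± 626 CPM (SD, n = 5) with MC903 and 2211 ± 640 CPM (SD, n = 6) with ethanol, which overlapped, and its change of 0.44 ± 0.21 did not pass (adjusted p = 0.159). The hemidesmosome integrins Itga6 and Itgb4 rose by 1.17 ± 0.14 and 0.85 ± 0.11, with no overlap between the groups for either.

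Of the spinous keratins, Krt1 had 1807, 1657, 892, 1233 and 1083 CPM against 260, 441 and 608 CPM and rose by 1.61 ± 0.24 (adjusted p = 0.000434). Its partner Krt10 averaged 926 ± 600 CPM (SD, n = 5) against 2032 ± 417 CPM (SD, n = 6) and fell by 1.17 ± 0.33 (adjusted p = 0.0221), although A1, at 1998 CPM, lay inside the ethanol range. Krt10 did not pass in a fit without B1 or in one without B2 (highest adjusted p = 0.076). Krt77 (chromosome 15, 101858731 to 101869705), a type II keratin of differentiated epidermis, had 5.55, 10.1, 8.87, 46.2 and 45.05 CPM against 1034, 1611 and 2005 CPM. That fall of 6.44 ± 0.45 (adjusted p = 7.04e-07) separated the groups completely, with cohort A lower than cohort B. Of 10 spinous markers, 4 were higher and 3 lower.

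In the granular and cornified layers 20 of 30 genes were higher and 5 were lower, and the direction depended on the gene family. Repetin (Rptn), a fused-type envelope protein, had 2335, 3242, 1888, 2944 and 2821 CPM against 91.4, 125.2 and 152 CPM and rose by 4.43 ± 0.20 (adjusted p = 1.62e-08). All 6 genes of the late cornified envelope group 3 rose, by 4.75 to 6.10, with a median of 5.43. Lce3f, for example, had 62.6, 24.8, 47.2, 18.3 and 28.5 CPM against 0.336, 0.496 and 1.44 CPM. Of 11 genes of group 1, 8 were higher, Lce1g most clearly by p (2.88 ± 0.19), and 1 was lower. That one was Lce1m, with 5.98, 3.83, 7.25, 11.3 and 13.7 CPM against 227, 261 and 518 CPM, a fall of 5.26 ± 0.36 (adjusted p = 5.28e-07). Members of the Lce3 group resemble each other in sequence, so reads could have been divided between them.

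The 5 genes that were lower were Lce1m, Lor, Flg2, Krt2 and Ivl. Loricrin (Lor) had 16.3, 12.1, 7.82, 27.4 and 24.6 CPM against 100.0, 122.4 and 292 CPM and fell by 3.16 ± 0.38 (adjusted p = 7.63e-05). Involucrin (Ivl) averaged 29.8 ± 21.8 CPM (SD, n = 5) against 102 ± 32.2 CPM (SD, n = 6) and fell by 1.93 ± 0.41, with B1 at 62.1 CPM just inside the ethanol range. Krt2, the keratin of the upper spinous and granular layers, fell by 2.67 ± 0.34. Other envelope genes rose, Hrnr (hornerin) by 1.45 and Cdsn (corneodesmosin) by 1.01 with no overlap, and Flg (filaggrin) by 1.71 from low levels, passing in 3 of 11 fits with 1 library left out. The transglutaminase genes Tgm1 and Tgm3, whose enzymes cross-link the envelope, changed by 0.46 and 0.17 and did not pass.

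**Figure D1:**
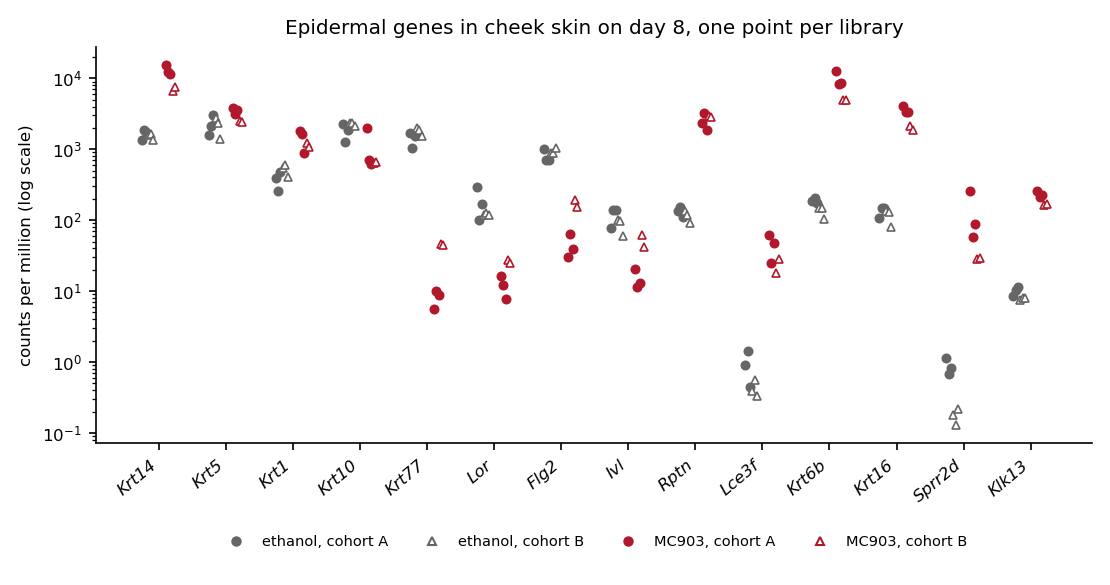
Levels of 14 epidermal genes in each of the 11 day 8 libraries, in CPM on a log axis; grey marks are ethanol and red marks MC903, with filled circles for cohort A and open triangles for cohort B. Krt77, Lor and Flg2 lie lower with MC903 and Rptn, Lce3f, Krt6b, Krt16, Sprr2d and Klk13 higher, with no overlap, whereas Krt5 and Krt10 overlap.

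The stress programme of the epidermis was raised almost throughout: 17 of 19 stress keratin and small proline-rich genes were higher and none was lower, with a median change of 5.68. Krt6b (chromosome 15, 101676023 to 101680287) had 12760, 8392, 8590, 4888 and 5010 CPM against 102, 162 and 206 CPM and rose by 5.50 ± 0.21 (adjusted p = 4.77e-09). Krt6a had 11060, 8476, 8811, 4962 and 6026 CPM against 210, 313 and 522 CPM, a rise of 4.43 ± 0.20 (adjusted p = 2.03e-08). Krt16, the type I partner of the K6 keratins, had 4049, 3364, 3346, 2154 and 1861 CPM against 80.3, 131.2 and 150 CPM, a rise of 4.47 ± 0.20. For each of the 3 genes A1 was highest, both cohort B libraries were lowest, and no MC903 library overlapped with ethanol. Per kilobase of exon, mean Krt6b was 3547 CPM with MC903, beside 6075 CPM for Krt14, and 71.97 CPM with ethanol. Krt17, present in follicles at rest, rose by only 0.66 ± 0.22 (adjusted p = 0.0477), with overlapping groups, and passed in 3 of the 11 fits that each left out 1 library.

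All 12 tested Sprr2 genes, which encode proline-rich cross-bridges of the cornified envelope and lie together on chromosome 3, rose by 3.44 to 7.26 with no overlap between groups. Sprr2a2 had 3491, 1230, 2776, 1438 and 1048 CPM against 9.73, 12.6 and 20.2 CPM, although Sprr2a1, Sprr2a2 and Sprr2a3 are near-identical copies whose separate values are uncertain. Sprr2d averaged 92.2 CPM with MC903 and 0.53 CPM with ethanol and rose by 7.26 ± 0.40 (adjusted p = 7.92e-08). Sprr1b rose by 4.0 ± 0.30, from a mean of 15.8 ± 9.48 CPM (SD, n = 6) to 248 ± 74.1 CPM (SD, n = 5). Sprr1a averaged 690 ± 339 CPM with MC903 and 561 ± 196 CPM with ethanol and did not pass (adjusted p = 0.571). Over the 17 genes that were higher, A1 was the highest library for 16.

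Since these genes moved as a block, their promoters were read from RefSeq's table for GRCm38.p6, which had a window of 250 bases before to 50 bases after the start for 14 of 20 listed genes. The letters TGANTCA, the core of the AP-1 site bound by Fos and Jun proteins, stood on either strand in 9 of those 14 windows, against 7.81% of 32851 windows of the same length and 8.97% of 27025 genes. The 7 stretches of 30 bases below hold it and come from genes that rose, each 5′ to 3′ on the gene's strand with the match in capitals.
Sprr2b, chr3:92316499-92316528, plus strand: aaaaggactctTGAGTCAcaagactcaacc
Sprr2d, chr3:92338936-92338965, plus strand: tgagtgctcacTGAGTCAcaggtctcaacg
Sprr2e, chr3:92351939-92351968, plus strand: tgagtgctcacTGAGTCAcaggtctcaaca
Sprr2f, chr3:92364979-92365008, plus strand: aaactgaatatTGAGTCAcagtgctcaaca
Sprr2h, chr3:92385476-92385505, plus strand: gggatggtctcTGAGTCActgcactttacc
Sprr2i, chr3:92407787-92407816, plus strand: gaagggctcacTGAGTCAcaggactgaaca
Sprr1b, chr3:92438872-92438901, minus strand: agcacctaggaTGAATCAtgtctgacaggc
In the 6 Sprr2 promoters the match began 193 to 198 bases before the start, and in Sprr1b 111 bases before it. The other 2 windows with a match were those of Sprr2k, at 196 and 182 bases, and of Sprr1a, which did not pass, with 2 matches, the farther at 146 bases. The Sprr2 genes arose by duplication, so their matches are not independent of each other. The letters TGANTCA also stood in 7 of 24 windows found for the interferon-induced genes described below. A match describes letters and not a bound site. Among AP-1 genes themselves, Fos had 60.05, 52.3, 75.9, 38.6 and 51.5 CPM against 8.19, 11.9 and 15.8 CPM and rose by 2.22 ± 0.20 (adjusted p = 7.39e-06). Fosl1 rose by 2.07 ± 0.23 and Junb by 1.07 ± 0.16, each with no overlap, whereas Jun, at a change of 0.01, and Fosb, at −0.46, did not pass. Of 20 immediate early genes, 9 were higher and none was lower.

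Most of the listed skin proteases were higher, and so were most of the listed protease inhibitors. Klk13 (ENSMUSG00000054046, chromosome 7, 43712567 to 43727534), a kallikrein serine protease, had 256, 211, 226, 166 and 171 CPM against 7.37, 8.31 and 11.3 CPM. Its rise of 4.48 ± 0.11 (adjusted p = 1.85e-10) was nearly equal in the cohorts, at 4.52 and 4.43. Klk6 had 423, 396, 346, 241 and 316 CPM against 18.2, 22.5 and 33.7 CPM, a rise of 3.79 ± 0.14, and Klk9 had 393, 286, 274, 208 and 181 CPM against 8.24, 11.7 and 14.5 CPM, a rise of 4.46 ± 0.17 (adjusted p = 4.77e-09 for both). No MC903 library of the 3 genes reached down to ethanol. Klk12, Klk8, Klk11 and Klk7 rose by 3.15, 2.97, 1.499 and 1.49. Klk5, which can activate other kallikreins, was lower by a small step, from 42.8 to 34.3 CPM on average (−0.33). The matriptase gene St14 fell by 0.71, and it and Klk5 each passed in 3 of the 11 fits that left out 1 library. Of 25 skin proteases, 15 were higher and 2 lower.

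Among 28 protease inhibitors, 21 were higher and 2 lower. The 7 stefin genes, cysteine protease inhibitors on chromosome 16, rose together with a median of 5.86, and as close copies they may share reads. Stfa2 had 178, 90.2, 111, 63.95 and 89.6 CPM against 1.26, 1.67 and 2.63 CPM and rose by 5.86 ± 0.25 (adjusted p = 1.04e-08). Slpi, an inhibitor of neutrophil elastase, rose by 6.02 ± 0.42, Spink5, the kallikrein inhibitor LEKTI, by 1.31, and the 4 Serpinb3 genes by 2.41 to 5.03. Wfdc12, a whey acidic protein inhibitor, had 43.1, 53.3, 25.1, 17.8 and 21.9 CPM against 0.0906, 0.217 and 1.11 CPM, while its relative Wfdc21 had 2.10, 0.682, 3.19, 2.47 and 1.18 CPM against 6.02, 15.03 and 23.6 CPM. The first rose by 6.55 ± 0.38 and the second fell by 2.76 ± 0.40, each with separate groups.

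Antimicrobial proteins followed: 13 of 21 were higher and none lower. Defb14, a mouse counterpart of human beta-defensin 3, had 100, 55.6, 54.9, 28.6 and 29.6 CPM against 0.509, 0.685 and 1.32 CPM, a rise of 5.87 ± 0.27 (adjusted p = 2.13e-08). The acute-phase gene Saa3 had 240, 158, 224, 46.6 and 79.2 CPM against 0.664, 1.14 and 3.43 CPM, a rise of 6.44 ± 0.36. In both genes cohort B was the lower cohort and still lay well above ethanol. Lcn2, which encodes the iron-scavenging lipocalin 2, had 39.2, 27.7, 45.4, 24.1 and 55.98 CPM against 2.58, 3.27 and 3.38 CPM, with its highest value in B2 and a rise of 3.64 ± 0.22. The granule genes Camp, Ltf and Ngp were near 0 in both groups, at mean levels of 0.0768, 0.257 and 0.0533 CPM with MC903, and did not pass.

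Lipid enzymes of the permeability barrier changed by smaller steps. Of 26 barrier lipid genes, 14 were higher and 4 lower. The sphingolipid hydroxylase gene Degs2 had 67.1, 78.02, 49.6, 31.6 and 32.9 CPM against 6.95, 9.34 and 10.3 CPM and rose by 2.41 ± 0.19 (adjusted p = 1.79e-06). The lipoxygenase Alox12b, the cholesterol sulfotransferase Sult2b1 and the very long chain elongase Elovl4 rose by 1.31, 1.24 and 1.12, all without overlap. The epidermal lipases Lipn, Lipk and Lipm fell by 1.57, 0.97 and 0.88, and Lipk passed in 5 of 11 fits with 1 library left out. Of 21 cholesterol synthesis genes, 11 were higher and only Insig1, a brake on that pathway, was lower (−0.68), which did not pass without A1 (adjusted p = 0.0537). A2 was the highest library for 9 of those 11.

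Genes of cell contacts changed in both directions, with 11 of 28 junction genes higher and 8 lower. Cdhr1 (chromosome 14, 37077857 to 37098347), a protocadherin best known from photoreceptors, had 188, 197, 208, 120.9 and 134 CPM against 0.755, 1.22 and 2.02 CPM and rose by 6.97 ± 0.21 (adjusted p = 1e-09). The connexins Gjb6 and Gjb2 rose by 2.23 and 1.01, and the basal desmoglein Dsg3 by 1.47. The tight junction adaptor cingulin (Cgn) had 11.3, 13.1, 6.87, 15.9 and 15.4 CPM against 38.9, 66.1 and 135 CPM and fell by 2.52 ± 0.32 (adjusted p = 0.00011). Of 7 claudins 4 fell, including Cldn23 (−1.73) and Cldn8 (−1.57), and the only one that rose was Cldn5 (1.01), the claudin of endothelium, which passed in 4 of 11 fits with 1 library left out. Occludin (Ocln) fell by 0.98 and the connexin Gja1 fell by 0.996, though Gja1 did not pass without A1, A2 or A3.

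Growth and energy genes differed in how far they moved. Of 14 genes of EGF receptor signalling 4 were higher (Epgn, Hbegf, Areg and Nrg1) and 2 lower. The epigen gene Epgn had 77.5, 96.1, 83.7, 104.6 and 155 CPM against 7.21, 9.40 and 11.3 CPM, with its highest value in B2, and rose by 3.48 ± 0.13 (adjusted p = 4.77e-09). Amphiregulin (Areg) had 28.99, 31.5, 27.8, 23.8 and 40.6 CPM against 6.42, 7.31 and 9.62 CPM, a rise of 2.02 ± 0.16, and Hbegf rose by 2.93 ± 0.27. The ligands Btc and Egf fell by 1.31 and 0.93. Of 32 proliferation genes 9 were higher and 1 lower, and the steps were small: Rrm2 rose by 0.81, Ccne1 by 1.09 and Mcm5 by 0.75, whereas Mki67 averaged 220 ± 66.3 CPM (SD, n = 5) with MC903 and 277 ± 70.98 CPM (SD, n = 6) with ethanol and did not pass. The glucose transporter gene Slc2a1 had 869, 674, 730, 357 and 272 CPM against 48.3, 54.99 and 72.8 CPM and rose by 3.11 ± 0.20 (adjusted p = 3.1e-07). Of 25 glycolysis and hypoxia genes 15 were higher, among them Hif1a (1.601) and Eno1 (1.55). The 2 that were lower, Pfkm and Aldoa, are the forms that skeletal muscle uses most, and Aldoa passed in 7 of 11 fits with 1 library left out. The summed muscle markers were also lower with MC903, and their part in this was not tested.

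**Figure D2:**
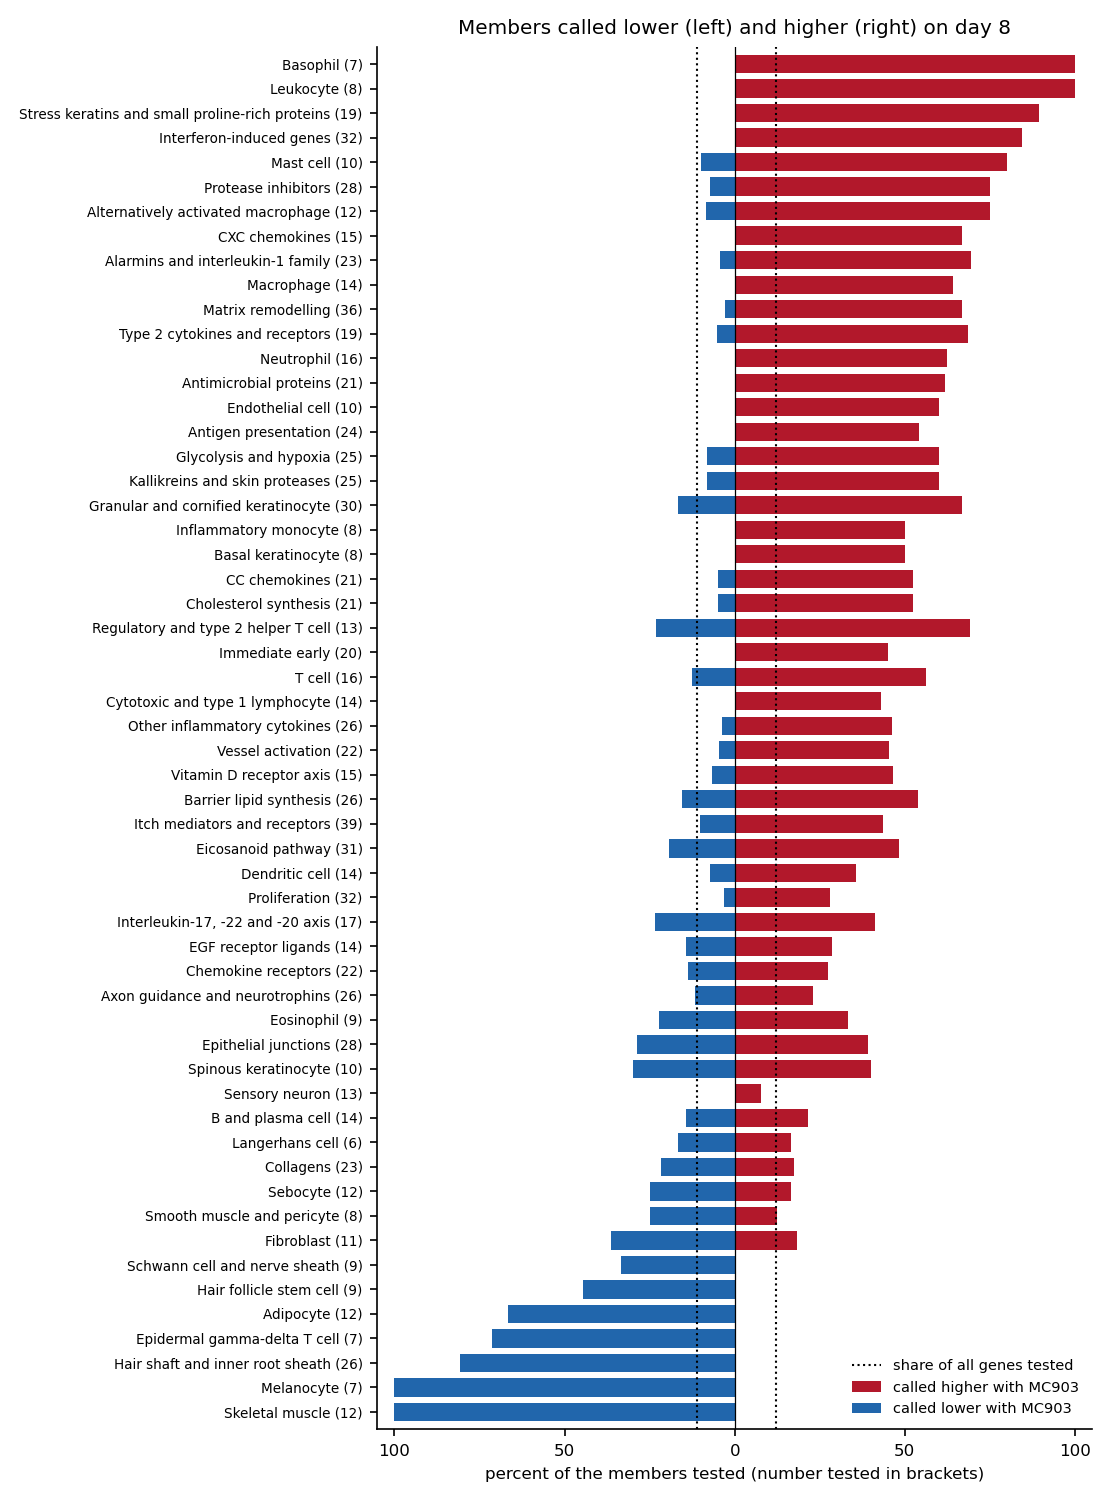
For 56 gene lists, the percent of tested members that were higher (right) and lower (left) with MC903 at an adjusted p of 0.05; dotted lines mark the shares over all 26175 genes, 12.2% higher and 11.2% lower. Stress keratins, basophil and leukocyte markers and interferon-induced genes lie far to the right, and skeletal muscle, melanocyte and hair genes far to the left.

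A list of alarmins, interleukin-1 family cytokines and their receptors had 16 of 23 members higher and 1 lower. Il1f8 (IL-36 beta) had 25.5, 31.2, 24.6, 25.4 and 23.2 CPM against 2.21, 3.05 and 3.96 CPM, with little spread between libraries, and rose by 3.06 ± 0.16 (adjusted p = 4.61e-08). Il1f9 (IL-36 gamma) rose by 2.54 ± 0.21. Il1b, made largely by myeloid cells, had 56.5, 16.7, 122.3, 16.4 and 44.2 CPM against 0.634, 1.29 and 1.69 CPM and rose by 5.18 ± 0.50, with a wide spread among MC903 libraries. Il1f10 (IL-38), described as an antagonist, had 1.92, 0.256, 0.974, 5.34 and 4.49 CPM against 6.04, 10.4 and 13.5 CPM and fell by 2.23 ± 0.50 (adjusted p = 0.00631). The antagonist gene Il1rn averaged 98.7 and 77.7 CPM and did not pass.

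A pair of cytokine genes of the interleukin-20 subfamily were near 0 with ethanol and clearly measured with MC903. Il24 (chromosome 1, 130882074 to 130887454) had 16.6, 4.52, 31.8, 14.7 and 50.3 CPM against 0, 0.0628 and 0.168 CPM, and Il19 had 28.9, 11.9, 49.6, 25.7 and 65.02 CPM against 0.0778, 0.276 and 0.967 CPM. Both were highest in B2 and lowest in A2, and rose by 8.32 ± 0.67 and 6.55 ± 0.56 (adjusted p = 2.52e-06 and 4e-06). Their receptor chains moved against them: Il20ra fell by 1.27 ± 0.27 and Il20rb by 0.58 ± 0.12. Il22ra2, the soluble IL-22 antagonist, had 0.793, 0.909, 0.893, 0.308 and 1.15 CPM against 3.40, 6.95 and 12.7 CPM and fell by 3.23 ± 0.40. Il17a, Il17c and Il22 had too few reads to be tested, and Il17f averaged 0.521 and 0.529 CPM. Il6 rose by 5.49 ± 0.57 and Osm (oncostatin M) by 5.53 ± 0.68, while Tnf averaged 2.46 ± 2.04 CPM (SD, n = 5) against 1.17 ± 0.265 CPM (SD, n = 6) and did not pass.

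Of 21 CC chemokine genes, 11 were higher and 1 lower. Ccl3, a ligand of CCR1, had 49.8, 7.19, 58.3, 6.47 and 13.5 CPM against 0.0283, 0.125 and 0.352 CPM, and rose by 7.28 ± 0.63 (adjusted p = 4.85e-06). Ccl4 followed the same order of libraries and rose by 7.10 ± 0.65. Ccl7 and Ccl2, ligands of CCR2, rose by 2.79 and 2.60, and Ccl17, a ligand of CCR4, by 2.59, from 0.107 to 0.694 CPM on average. The eotaxin Ccl11 averaged 17.4 and 16.99 CPM and did not pass, while Ccl24, another eotaxin, rose by 2.05. Ccl27a, the skin-homing chemokine of resting keratinocytes, had 7.99, 8.27, 6.36, 12.2 and 9.19 CPM against 15.1, 21.9 and 32.8 CPM and fell by 1.32 ± 0.15 (adjusted p = 4.11e-05). Of 15 CXC chemokine genes 10 were higher, including Cxcl16 (1.11 ± 0.16) and Cxcl13 (2.87). Among receptors, Ccr1 had 26.5, 19.5, 61.2, 19.8 and 33.6 CPM against 2.41, 2.97 and 5.10 CPM and rose by 3.27 ± 0.33. Cxcr2 and Cxcr3 rose by 1.70 and 1.66, and Ccr4 fell by 1.80 ± 0.31.

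Most tested genes of type 2 cytokines and their receptors were higher, 13 of 19, and 1 was lower. Of the 11 receptor genes among them 8 were higher and none lower, with a median of 1.44. Csf2rb, the common beta chain for IL-3, IL-5 and GM-CSF, had 86.04, 92.2, 142, 70.7 and 85.6 CPM against 10.5, 13.4 and 17 CPM and rose by 2.78 ± 0.18 (adjusted p = 3.39e-07). Il4ra had 201, 166, 354, 154 and 213 CPM against 29.2, 39.9 and 60.8 CPM, a rise of 2.36 ± 0.20, and Il13ra1 rose by 1.51 ± 0.13. Groups were separate for all 3, and A3 was highest for the first 2. The decoy receptor Il13ra2 rose by 2.08 ± 0.40, Crlf2, the TSLP receptor chain, by 1.32 ± 0.20 and Il10 by 3.27 ± 0.35, from 0.152 to 1.52 CPM. Il31ra and Stat6 did not pass, and Il5, Il9 and Il31 had too few reads to be tested.

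Leukocyte markers followed. All 8 general leukocyte genes were higher, for example Cd53, with 41.5, 36.4, 97.8, 43.6 and 61.1 CPM against 9.67, 18.5 and 23.7 CPM (1.67 ± 0.28). All 7 basophil markers were higher with no overlap, at a median of 2.37. Mcpt8 (chromosome 14, 56082166 to 56085273), the basophil granule protease, had 10.3, 7.47, 21.2, 13.7 and 16.6 CPM against 0.0259, 0.0932 and 0.117 CPM and rose by 7.32 ± 0.36 (adjusted p = 3.43e-08). Cyp11a1, a steroid-synthesis gene listed as a basophil marker, had 5.86, 5.597, 9.44, 8.22 and 6.76 CPM against 0.936, 1.35 and 2.06 CPM, a rise of 2.37 ± 0.23. Of 10 mast cell markers 8 were higher, though 2 of these, Hdc and Ms4a2, are also made by basophils. The mast cell proteases Cma1 and Cpa3 each rose by 1.26 ± 0.23, with cohort effects of 1.70 and 0.68 for the first. Mrgprb2, the mast cell receptor for basic secretagogues, went the other way, with 3.20, 3.98, 4.36, 2.84 and 3.43 CPM against 7.24, 9.99 and 25.8 CPM, and fell by 1.77 ± 0.33 (adjusted p = 0.00197). Kit did not pass.

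Of 16 neutrophil markers 10 were higher and none lower, with a median of 3.28. S100a9 had 158, 22.8, 113.4, 20.4 and 45.5 CPM against 0.431, 0.958 and 1.10 CPM and rose by 6.18 ± 0.51 (adjusted p = 2.93e-06). It and S100a8 are also made by stressed keratinocytes, whereas Trem1, a myeloid receptor, had 5.61, 3.04, 14.3, 1.88 and 3.40 CPM against 0, 0.103 and 0.285 CPM and rose by 5.32 ± 0.59. The gelatinase gene Mmp9 rose by 3.11. Ly6g averaged 0.122 and 0.0101 CPM and did not pass. Eosinophil markers were mixed, 3 of 9 higher and 2 lower, and low: Siglecf averaged 1.01 and 0.425 CPM and did not pass.

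The alternatively activated macrophage list had 9 of 12 members higher and 1 lower. Arg1 (arginase 1) had 764, 316, 517, 141 and 199 CPM against 38.6, 44.5 and 49.2 CPM and rose by 2.88 ± 0.31 (adjusted p = 3.4e-05). The chitinase-like gene Chil3 had 69.6, 10.3, 110, 3.94 and 23.3 CPM against 0.0959, 0.203 and 0.650 CPM, an increase of 6.85 ± 0.71 with a wide spread across MC903 libraries. Retnla, usually counted with these genes, fell instead, from 56.1, 88.4 and 164 CPM in ethanol to 18, 28.9, 19.6, 15.8 and 20.7 CPM (−2.20 ± 0.28, adjusted p = 0.000114). General macrophage markers rose less, 9 of 14, for example Mrc1 by 1.34 and Cd68 by 1.15.

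T cell genes moved in both directions. Of 16 general T cell genes 9 were higher and 2 lower. The alpha-beta receptor constant genes Trbc2 and Trbc1 rose by 1.47 ± 0.17 and 1.32 ± 0.17, Cd4 by 2.05 ± 0.34 and Icos by 2.87 ± 0.33. Foxp3, which defines regulatory T cells, had a mean of 1.39 ± 0.694 CPM (SD, n = 5) against 0.308 ± 0.139 CPM (SD, n = 6) and rose by 2.16 ± 0.43. The list of regulatory and type 2 helper T cell genes, to which Foxp3 and Icos belong, had 9 of 13 higher and 3 lower: Gata3 (−1.02), Ccr4 (−1.80) and Ikzf2 (−0.93). Its summed level was 111.9 to 195.1 CPM with MC903 and 180.9 to 199.3 CPM with ethanol. The CD3 chain genes Cd3g and Cd3e fell, by 1.23 and 0.99. The list for dendritic epidermal gamma-delta T cells had 5 of 7 genes lower and none higher, with a median of −1.99. The constant gene Trdc had 0.763, 0.7103, 0.325, 1.20 and 0.592 CPM against 1.84, 2.82 and 4.48 CPM and fell by 1.99 ± 0.32 (adjusted p = 0.000684). Tcrg-C1 fell by 1.95 ± 0.29, with separate groups, and Tcrg-V5, the variable gene of those cells, had no read in any MC903 library and up to 11 reads in an ethanol library. The Langerhans cell gene Cd207 (langerin), also of the epidermis, had 0.763, 0.341, 0.784, 1.44 and 1.37 CPM against 3.63, 6.501 and 9.99 CPM and fell by 2.81 ± 0.34 (adjusted p = 8.29e-05), while Epcam and Itgae of the same list did not pass. Of that list's 6 members 1 was lower and 1 higher, the latter being Runx3, a transcription factor also of lymphocytes (1.24, groups separate). The cytotoxic list had 6 of 14 higher, led by Gzmb, at 6.47, 2.22, 18.7, 4.66 and 8.63 CPM against 0.0293, 0.174 and 0.292 CPM (5.53 ± 0.59).

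Genes induced by interferons were raised in most cases but unevenly between libraries: 27 of 32 were higher and none was lower, with a median change of 1.84. Oas1a, an antiviral RNA sensor, had 30.1, 9.77, 47.1, 7.502 and 9.78 CPM against 2.11, 2.72 and 3.35 CPM, a rise of 2.65 ± 0.40 (adjusted p = 0.000516). The guanylate-binding protein gene Gbp5 had 27.2, 11.2, 75.2, 10.9 and 18.04 CPM against 3.42, 4.55 and 5.42 CPM, a rise of 2.47 ± 0.43. Rsad2 (viperin) had 26.8, 9.72, 39.5, 5.04 and 16.1 CPM against 2.73, 3.52 and 4.41 CPM, a rise of 2.38 ± 0.44. All MC903 libraries exceeded all ethanol libraries for these genes, with A3 highest and A1 next. A3 was the highest library for all 27 genes, B1 the lowest for 18 and A2 the lowest for 9, and the highest and lowest MC903 libraries differed by a median of 6.93-fold. The members' median log2 level over the ethanol median was 2.04, 0.96, 3.14, 0.71 and 1.39 in the 5 libraries. A3 was also highest for 8 of 8 leukocyte, 9 of 9 macrophage and 13 of 13 antigen presentation genes that were higher, and their part in the interferon result was not tested. Over all called-higher genes with a symbol, A3 was the highest library for 1084 of 3176. The cohort medians were 2.43 in A and 0.96 in B. A fit without A3 called 25 of the 32 higher, and leaving out other single libraries gave 22 to 28.

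The interferon-stimulated response element, a site bound by transcription factors that interferons activate, has a core of GAAA, 2 bases of any kind and GAAA again. That core stood on either strand in 15 of 24 promoter windows found for the list, against 3.44% of all windows and 3.99% of all genes, and in 0 of the 14 stress keratin and small proline-rich windows. These stretches show the core in the genes described above and in 3 further members.
Oas1a, chr5:120907526-120907555, minus strand: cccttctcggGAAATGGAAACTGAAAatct
Gbp5, chr3:142496759-142496788, plus strand: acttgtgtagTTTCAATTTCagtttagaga
Rsad2, chr12:26456553-26456582, minus strand: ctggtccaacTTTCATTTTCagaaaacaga
Isg15, chr4:156200871-156200900, minus strand: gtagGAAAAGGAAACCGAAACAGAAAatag
Irgm1, chr11:48871428-48871457, minus strand: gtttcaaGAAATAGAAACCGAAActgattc
Gbp2, chr3:142620594-142620623, plus strand: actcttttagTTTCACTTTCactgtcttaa
Each is written 5′ to 3′ on the gene's strand from GRCm38.p6, capitals mark the core, and TTTC, 2 bases and TTTC is the same core on the other strand. Oas1a and Irgm1 carry 2 overlapping copies and Isg15 carries 3. The 24 copies that lie before a start did so at 14 to 222 bases, with a median of 76.5. A window with no match says only that these letters are not in it. Isg15, a ubiquitin-like protein, rose by 3.06 ± 0.62, Gbp2 by 3.35 and the GTPase gene Irgm1 by 2.43. The signalling genes Stat2, Irf9, Irf7 and Irf1 rose by 1.501, 1.24, 1.64 and 1.90. Ifng itself averaged 0.791 and 0.0509 CPM and rose by 3.37, passing in 3 of 11 fits with 1 library left out.

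Antigen presentation divided by class. All 10 tested genes of the class I pathway were higher, with a median of 0.87. The immunoproteasome subunit Psmb8 had 54.3, 27.9, 82.5, 17.98 and 21.5 CPM against 9.20, 12.3 and 15.5 CPM and rose by 1.53 ± 0.31 (adjusted p = 0.00361), and H2-D1 and B2m rose by 0.77 and 0.72, of which B2m did not pass without B2 (adjusted p = 0.06). None of the 10 class II genes passed, with changes from −0.20 to 0.54 and a median of 0.06. The class II chain gene H2-Ab1 averaged 207 and 229 CPM, and the transactivator gene Ciita 15.8 and 15.1 CPM. The costimulatory genes Cd80, Cd86 and Cd40 rose by 2.78, 0.98 and 1.49.

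**Figure D3:**
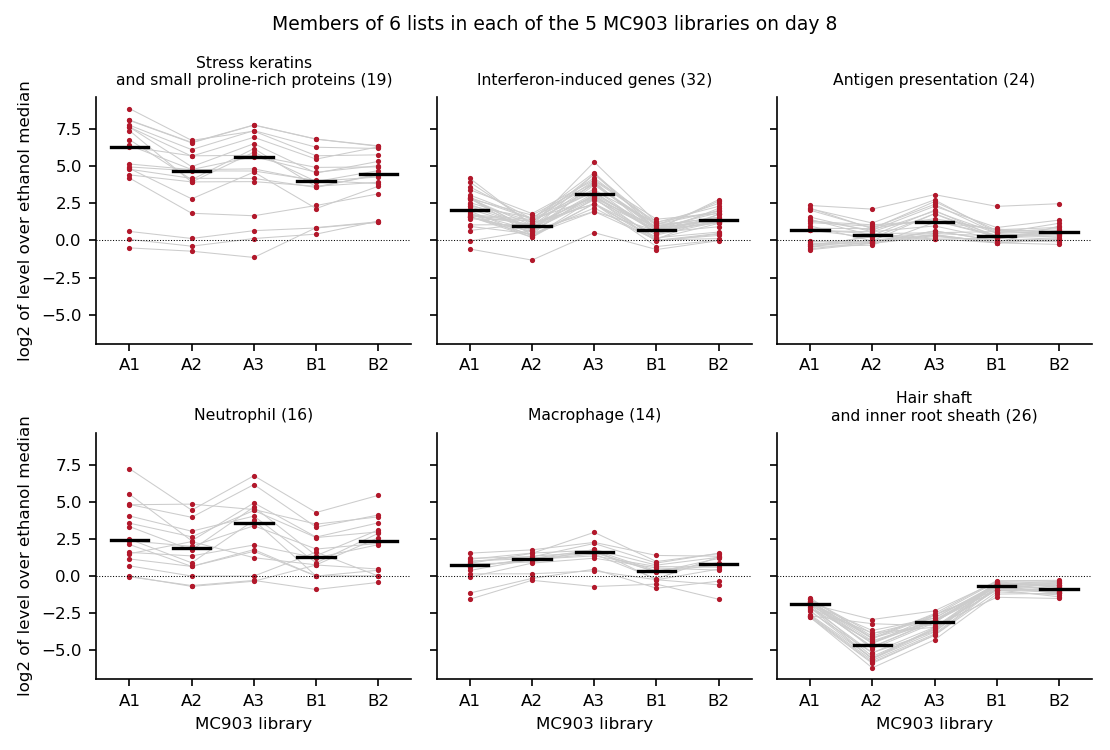
Members of 6 gene lists in each MC903 library, as the log2 ratio of the level plus 0.1 CPM to the ethanol median plus 0.1 CPM; each grey line joins a gene across libraries and black bars are medians. Interferon medians run from 0.71 in B1 to 3.14 in A3, stress keratin medians from 3.99 in B1 to 6.30 in A1, and hair medians from −4.64 in A2 to −0.65 in B1.

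Lipid mediators and itch-related genes changed in sets. Of 31 eicosanoid genes 15 were higher and 6 lower. Ptgs2 (chromosome 1, 150100031 to 150108227), the inducible cyclooxygenase, had 343, 343, 391, 169 and 292 CPM against 3.58, 4.82 and 5.67 CPM and rose by 6.02 ± 0.24 (adjusted p = 4.86e-09). Downstream, the prostaglandin E synthase gene Ptges had 254, 267, 233, 132.4 and 175 CPM against 19.3, 20.9 and 30.5 CPM, a rise of 3.17 ± 0.17, while Hpgd, which inactivates the product, had 8.12, 7.79, 5.98, 15.8 and 14.2 CPM against 15.97, 22.3 and 27.7 CPM, a fall of 1.14 ± 0.20. The 3 genes each separated the groups. The prostaglandin E2 receptors Ptger3 and Ptger4 fell by 1.08 and 0.98, and the leukotriene B4 receptors Ltb4r1 and Ltb4r2 rose by 2.53 and 1.97. The cytosolic phospholipase gene Pla2g4d had 68.2, 37.3, 53.9, 16.6 and 14.7 CPM against 0.0604, 0.235 and 0.679 CPM, a rise of 6.79 ± 0.31. Alox5 and Ltc4s did not pass.

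Of 39 itch mediators and receptors 17 were higher and 4 lower. Hdc, which makes histamine, had 53.3, 25.6, 87.6, 33.6 and 48.6 CPM against 1.30, 2.14 and 3.28 CPM and rose by 4.45 ± 0.35 (adjusted p = 1.79e-06). Tph1, which makes serotonin outside the brain, rose by 2.96 ± 0.52, from 0.756 to 5.09 CPM, the serotonin receptor gene Htr7 by 2.40 ± 0.33, the neurokinin 1 receptor gene Tacr1 by 1.75 ± 0.25 and Nts (neurotensin) by 2.62 ± 0.49. Artn (artemin), a growth factor of sensory neurons, rose by 2.87 ± 0.51 from low levels, Sema3a, which repels axons, by 1.49 ± 0.23, and Sema3d fell by 2.25 ± 0.18. Trpv3, Trpv4 and F2rl1, channels and a protease receptor of keratinocytes, did not pass. Edn1 (endothelin 1) fell by 0.58.

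Matrix remodelling genes were higher in 24 of 36 cases and lower in 1. Of 13 matrix metalloproteinase genes 11 rose, with a median over all 13 of 2.56. Mmp13 (collagenase 3) had 39.9, 28.2, 109, 91.8 and 177 CPM against 0.285, 0.802 and 1.36 CPM, a rise of 6.81 ± 0.43 (adjusted p = 3.1e-07). Mmp8 had 5.98, 6.17, 4.76, 2.36 and 3.37 CPM against 0.0324, 0.119 and 0.155 CPM, a rise of 5.195 ± 0.26. B2 was the highest library for the first and A2 for the second. Their inhibitor Timp1 rose by 3.96 ± 0.40 and Timp3 fell by 0.61 ± 0.14. The fibrillar collagens Col1a1 and Col1a2 fell by 0.93 and 1.01 with overlapping groups, Col1a1 passing in 3 of 11 fits with 1 library left out, and Col3a1 did not pass. Among vessel genes 10 of 22 were higher: Sele (E-selectin) had 19.4, 21.4, 33.5, 8.43 and 16.9 CPM against 1.07, 1.48 and 2.17 CPM and rose by 3.50 ± 0.26, and Selp, Vcam1 and Icam1 rose by 3.08, 3.13 and 1.43. Of 10 endothelial markers 6 were higher, with a median of 0.94, for example Vwf (1.54) and Pecam1 (1.003), beside a median of 0.56 over the 22 vessel genes.

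Several tissues beneath and between the keratinocytes had lower levels. All 12 skeletal muscle genes were lower, with a median of −1.65, and their summed level was 3106 to 5543 CPM with MC903 and 5090 to 21280 CPM with ethanol. Mb (myoglobin) had 23.01, 37.6, 41.01, 46.1 and 40.8 CPM against 55.4, 135 and 186 CPM and fell by 1.61 ± 0.24 (adjusted p = 0.000453). The depth of the piece of skin was not recorded in the labels, and the part of muscle content in any other gene's change was not tested. Of 12 adipocyte genes 8 were lower, for example Lpl, with 173, 239, 212, 241 and 273 CPM against 350, 513 and 568 CPM (−1.02 ± 0.13), and Plin1 (−2.05 ± 0.41). All 7 melanocyte genes were lower, for example Tyr (−1.48 ± 0.33), though only Tyrp1 had separate groups, and Tyrp1 passed in 8 of 11 fits with 1 library left out. Of 9 nerve sheath genes 3 fell. Among 13 sensory neuron genes only Tubb3, a neuronal tubulin, passed, at 0.88 ± 0.18.

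Hair shaft and inner root sheath genes were lower in 21 of 26 cases, with a median of −2.0. Lef1, a transcription factor of the hair matrix, had 8.30, 2.61, 3.44, 20.0 and 19.8 CPM against 25.1, 38.3 and 45.1 CPM and fell by 1.94 ± 0.39 (adjusted p = 0.00361). Krt35, a hair cortex keratin, had 159, 25.2, 75.8, 349 and 258 CPM against 386, 582 and 907 CPM and fell by 2.04 ± 0.52. In each, A2 was lowest and cohort B lay just under the ethanol range. Only 5 of the 26 had groups that did not overlap, and the list's summed level in ethanol B3, 20580 CPM, lay below that of MC903 B1 and B2, 30010 and 28070 CPM. The list's median change was −3.14 in cohort A and −0.51 in cohort B, and the number called lower fell to 5 without MC903 A1, 5 without MC903 A3 and 12 without ethanol A3. The stem cell keratin Krt15, by contrast, had 318, 364, 316, 324 and 275 CPM against 712, 974 and 1271 CPM in near-equal measure in both cohorts (−1.63 ± 0.16, adjusted p = 1.65e-05). Hair cycles in waves, and the follicle stage of each mouse is not given in the labels.

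Some of the clearest differences lay outside the lists. Akr1d1, a steroid 5-beta-reductase best known from liver, had 256, 309, 188, 157 and 139 CPM against 0.804, 1.88 and 3.34 CPM, a rise of 6.66. Rbp2, a retinol-binding protein of the gut, had 157, 108, 118.8, 84.1 and 95.5 CPM against 3.64, 5.24 and 6.28 CPM and rose by 4.38. The phosphatase gene Ptprz1 had 153 and 239 CPM in A1 and A2, 158 and 150 CPM in B1 and B2 and its lowest MC903 level in A3, against 5.71, 7.35 and 9.20 CPM and rose by 4.46. None of the 3 had overlapping groups. The pseudogene Gm11597 had 745, 570, 509, 280 and 252 CPM against 4.60, 8.48 and 10.24 CPM, a rise of 5.70 ± 0.20 (adjusted p = 4.37e-09), and reads from a related gene could have been assigned to it. Bcl3, a partner of NF-kappaB, rose by 2.81 and the neuronal secreted protein gene Cbln1 by 5.74. Hal, whose enzyme turns histidine into the skin's ultraviolet absorber urocanic acid, had 8.82, 6.65, 7.36, 17.4 and 17.01 CPM against 74.1, 89.5 and 107 CPM and fell by 3.02 ± 0.20 (adjusted p = 5.22e-07). Serpinb7 fell by 3.53 and the tight junction gene Tjp3 fell by 1.95. Gm5849 had 0 to 1 reads in MC903 libraries and 142 to 261 reads in ethanol libraries.

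Gene families were looked at after the values of some members were seen. The gasdermin C, Skint and Mrgprb families had members among the clearest genes outside the lists, and the major urinary protein family did not. The 4 gasdermin C genes (chromosome 15, 63775968 to 63912297), whose proteins can form membrane pores, all rose, with a median of 6.97, and Gsdmc had 176, 97.8, 208, 102 and 138 CPM against 0.703, 1.34 and 2.29 CPM. Of 11 Skint genes (chromosome 4, 111919392 to 114245028), 10 fell and 8 of these had no overlap, with a median over the family of −2.14. The founding member, Skint1, which selects the gamma-delta T cells of the epidermis, was the 1 that did not pass. Skint1 had 8.34 to 17.3 CPM with MC903 and 10.9 to 21.8 CPM with ethanol (without the scaling). Of 19 major urinary protein genes 16 fell. Among the family, Mup4 was near 0, with at most 0.0555 CPM with MC903 and 0.183 CPM with ethanol (without the scaling). Mup4 is also among the gland genes described below. The members of each family share sequence, so single values are uncertain. Mrgprb3, an orphan receptor gene beside Mrgprb2 on chromosome 7, had 0.0610, 0, 0.0271, 0.171 and 0.218 CPM against 5.32, 9.95 and 14.7 CPM.

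The day 8 effect was set against that of uninjected wild-type cheek skin on day 5, with 3 MC903 and 3 ethanol libraries of its own, by a test of the difference itself. It passed for 441 of 27187 genes (1.62%), 192 with a larger value at day 8 and 249 with a smaller one. Of the genes called higher at day 8, 86.6% had the same sign at day 5, against 48.5% of all genes. Of those called lower 82.8% did, against 51.5% of all genes. Among interferon-induced genes 10 of 32 had a larger effect at day 8 and none a smaller one, among them Gbp2, Gbp5, Ifi44, Irf9, Irgm1, Oasl2, Rsad2, Stat2 and Usp18. These 9 differences were close to the threshold, and each passed in 4 to 7 of 17 fits that left out 1 library of either day. The list's median effect was −0.40 at day 5. Gbp5 ran from 5.09 to 7.68 CPM with MC903 and 4.81 to 10.7 CPM with ethanol at day 5, and from 10.8 to 77.15 CPM and 3.33 to 5.66 CPM at day 8 (these levels without the scaling). The groups thus overlapped on day 5 and not on day 8.

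Keratinocyte genes showed the opposite order. Of 19 stress keratin and small proline-rich genes 6 had a smaller effect at day 8 (Krt17, Krt6a, Krt6b, Sprr1a, Sprr1b and Sprr2h), as did Klk13, Klk6, Klk7 and Klk5. With 1 library left out, Krt6a, Sprr1a, Krt17, Klk5 and Krt6b passed in 4, 6, 8, 9 and 15 of 17 fits, and the other 5 in all 17. Rptn ran from 6674 to 7896 CPM with MC903 and 36.7 to 50.6 CPM with ethanol at day 5, and from 1936 to 3281 CPM and 102 to 145 CPM at day 8. Its effects of 7.20 and 4.44 differed by −2.76 (adjusted p = 0.000246). At day 8 the MC903 range was lower, and the ethanol range higher, than at day 5. Areg effects were 4.25 and 2.03 (adjusted p = 0.00124), and those of Gprc5a, a retinoic acid-induced receptor, 5.85 and 1.17. Wfdc12, with effects of −1.92 at day 5 and 6.57 at day 8, gave the smallest p (adjusted p = 5.72e-05). Without the scaling, Wfdc12 ran from 71.3 to 116.5 CPM with MC903 and 192 to 479 CPM with ethanol at day 5. At day 8 it ran from 17.8 to 53.9 CPM with MC903 and 0.0872 to 1.16 CPM with ethanol. Its ethanol levels thus differed between the days more than its MC903 levels did. Skint1 had effects of −1.93 and −0.11. The hair list had a median effect of 0.96 at day 5 and −2.0 at day 8, with open points only in the plot of both days' effects.

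The day 5 libraries also differed in 14 genes of salivary and lacrimal gland secretion, among them those of parotid secretory protein (Bpifa2) and salivary amylase (Amy1), chosen after their values were seen. These genes took 5.16 to 16.1% of reads in day 5 ethanol libraries and 0.0768 to 2.48% in day 5 MC903 libraries, and 0.00101 to 0.00353% in the 11 day 8 libraries. Klk1, a gland kallikrein, had an effect of −5.58 at day 5, and its difference between the days passed in 3 of 17 fits with 1 library left out. The gene Scgb1b27, a secretoglobin, had effects of −4.56 at day 5 and 4.61 at day 8. Its day 8 levels were near 0, at 0.17 to 0.24 CPM with MC903 and at most 0.027 CPM with ethanol (without the scaling). The part of the gland genes in the differences above was not tested, and the day cannot be told apart from the experiment that supplied it.

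**Figure D4:**
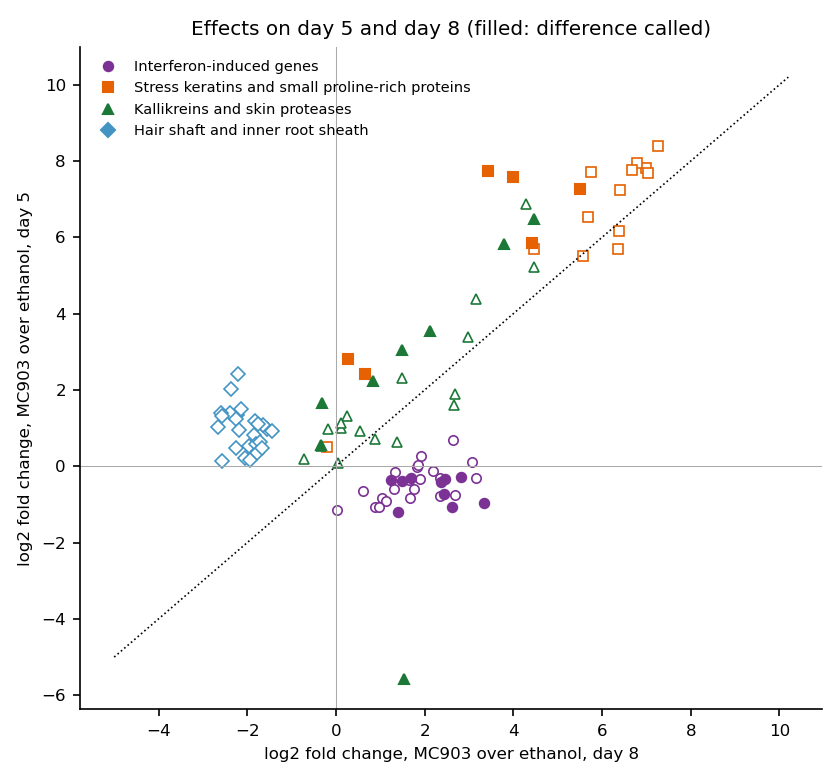
Log2 effect of MC903 at day 5 (vertical) against day 8 (horizontal) for members of 4 lists, with the diagonal of equal effects; filled points passed the test of the difference. The 10 filled interferon points lie below the diagonal, so larger at day 8, and the filled stress keratin points above it, and the point near −5.58 at day 5 is Klk1.

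Wild-type mice that received PBS injections with day 8 MC903 (2 libraries) or ethanol (3 libraries) gave a second view of the same day. The test of the difference passed for 4 of 27367 genes (0.0146%), all with smaller effects in the uninjected mice, and 725 had an unadjusted p under 0.05. The 4 were Mucl2, Lipo1, Mup4 and Dnase1, with effects of −1.83, −0.44, −1.80 and −0.22 uninjected and 7.32, 6.37, 5.92 and 4.90 with PBS. With 1 library left out they passed in 14, 5, 6 and 1 of 16 fits, Dnase1 only without PBS MC903 replicate 1. All are among the 14 gland genes, which were chosen after these values were seen, so their membership is not a separate result. Those 14 genes took 0.0917 and 1.45% of reads in the PBS MC903 libraries and 0.00679 to 0.0141% in the PBS ethanol libraries. Of genes called higher in the uninjected mice 96.9% had the same sign with PBS, against 47.4% of all genes. The interferon list had a median effect of 2.04, stress keratins 6.07 and hair genes −1.41 in the PBS mice.

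The same test between the cohorts passed for 0 of 26175 genes with edgeR, while 2853 genes had an unadjusted p under 0.05 and DESeq2 called 574. The call for hair genes depended on the fit: edgeR called 0 of 26, although 25 had an unadjusted p under 0.05, whereas DESeq2 called 16, edgeR with no filter on low counts 11, and edgeR without MC903 A1 22 and without ethanol A1 11, all with a larger fall in cohort A. Of 32 interferon-induced genes edgeR called 0, with 20 at an unadjusted p under 0.05, DESeq2 called 5 and edgeR without MC903 A1 called 1, all larger in cohort A.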

How the data were processed

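Per the submitters' processing notes, the authors aligned the reads to mm10 with TopHat and Bowtie2 and tallied them per Ensembl gene with HTSeq. The annotation release and strand setting are not given in the sources used here, so a gene and an overlapping antisense gene may share reads. The deposited files held whole-number counts for 46078 genes per library, of which 45143 were given a symbol from GENCODE (GRCm38). Reads tallied as no feature (9.41 to 15.24%) or ambiguous (1.96 to 2.53%) were left out. Some genes counted in the lists are not reported here by name. In R 4.3.3, genes with at least 10 reads over the libraries of a comparison were scaled by the TMM method and tested with edgeR 4.0.16 (quasi-likelihood F test, cohort term, two-sided, Benjamini-Hochberg, threshold 0.05), and a standard error is the absolute log2 change over the square root of F. Differences between effects were tested as interaction terms. DESeq2 1.42.0 was an alternative. The edgeR fits with the main settings were tested on simulated data, and the alternatives were not. Tables and figures used Python 3.11.15, pandas 2.3.3, numpy 2.4.6 and matplotlib 3.10.9.

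List members could be named whether they passed or not. Those given in full were at most 4 per direction per list, with the smallest p among passing members whose groups did not overlap, and outside the lists 12 genes per direction and up to 6 per direction in each test of a difference. A few were added for contrast or chosen after their values were seen: the gene families, the gland genes and Mrgprb3. The members, lists and tests were chosen with earlier results of these data known. Replicate numbers repeat within cohort A, so libraries were numbered in accession order. A comparison with day 12 was not run, because those libraries went against their labels.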

Additional observations from a re-analysis of the deposited data

Results flagged for a closer look

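In 152 groups of 5 or 6 libraries, taken from the 76 genes given library by library, 7 held a library far from the others by Dixon's criterion, which chance passes in about 1 of 20 groups. The ethanol A1 library was the highest of its group in 5 of these: Cyp26b1 (79.27 CPM), Lor (292.2 CPM), Wfdc12 (1.114 CPM), Saa3 (3.428 CPM) and Ptges (30.53 CPM). The others were MC903 A2 for Il1f8 (31.17 CPM) and MC903 A3 for Gbp5 (75.25 CPM).

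The day 8 and day 5 effects differed by the interaction test in 26 named genes. The difference, day 8 minus day 5 on the log2 scale, was positive for the interferon-induced genes Gbp2 (4.32), Gbp5 (2.82), Ifi44 (3.71), Irf9 (1.63), Irgm1 (3.17), Oasl2 (3.12), Rsad2 (2.81), Stat2 (1.90) and Usp18 (2.63). It was negative for the keratins Krt17 (−1.73), Krt6a (−1.40) and Krt6b (−1.75), for the proline-rich genes Sprr1a (−2.53), Sprr1b (−3.57) and Sprr2h (−4.28), and for the kallikreins Klk13 (−1.98), Klk6 (−2.02), Klk7 (−1.53) and Klk5 (−0.87). Rptn (−2.76), Areg (−2.22) and Gprc5a (−4.68) were also negative. Klk1 (7.42), Wfdc12 (8.48), Skint1 (1.82) and Scgb1b27 (9.16) were positive. Uninjected minus PBS-injected effects differed for Mucl2 (−9.15), Lipo1 (−6.81), Mup4 (−7.72) and Dnase1 (−5.12).

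Of the 9 libraries labelled as day 12 uninjected wild-type skin, which entered no comparison, 6 had 788.9 to 1018 CPM of the sensory neuron gene Scn10a and 2.546 to 3.476 CPM of the skin keratin Krt10. Among the other 3, the libraries labelled ethanol replicates 2 and 5 had 7459 and 5258 CPM of Cyp24a1, above the highest day 8 ethanol level of 29.6 CPM, and 121.3 and 108.8 CPM of Tslp. The library labelled MC903 replicate 1 had 0.956 CPM of Cyp24a1 and 1.603 CPM of Tslp.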

How the results depend on the processing

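The 6125 calls between MC903 and ethanol became 2258 in cohort B alone, 4883 to 6445 with 1 library left out, and between 4355 and 7410 with RLE scaling, DESeq2, another filter or none, no cohort term, or cohort A alone. With 1 library left out, 3972 of the 6125 passed in all 11 fits. The 0 cohort differences became 574 with DESeq2, 285 with no filter on low counts and 0 to 624 with 1 library left out (410 without MC903 A1, 624 without ethanol A1). The 441 differences from day 5 became 1496 with DESeq2, 35 with cohort B alone, 628 with cohort A alone and 182 (without day 5 MC903 replicate 3) to 829 with 1 library left out. The 4 differences from PBS became 22 with DESeq2, 7 with no filter, 0 with either cohort alone and 0 to 13 with 1 library left out. No named gene that passed changed sign under these alternatives. Of 289 named results, 100 crossed the threshold with the replicate block and 41 in at least 1 fit with a library left out, and of 286, 65 in cohort B alone and 42 in cohort A alone; F2rl1, Il1rn, Itgae, Ltf, Scn10a, Siglecf and Tgm1, which did not pass, each did so in 1 such fit. The cause of these shifts was not tested, though the fits with libraries left out had fewer libraries and the replicate block compared fewer of them. Same-numbered MC903 and ethanol libraries correlated at −0.231 (cohort A), −0.098 and −0.041 (cohort B), −0.323 to 0.276 at day 5 and −0.503 and −0.62 with PBS. So few pairs cannot decide whether the replicate numbers pair the samples. With a replicate block the calls numbered 1285, 287, 27 and 0 in the order above. In that block only the same-numbered pairs A2, B1 and B2 held both treatments at day 8. The other day 8 libraries therefore did not bear on the day 8 effect in those fits. In the day 12 comparison no alternative was run.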
